A study of Mus musculus with 30 samples.

Results

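Alveolar type 1 cells are the thin, flat epithelial cells that line most of the gas-exchange surface of the lung. They arise late in gestation from progenitors at the tips of the branching airways, in parallel with the surfactant-making alveolar type 2 cells, and their maturation is known to depend on NKX2-1 and on TEAD transcription factors acting with YAP and TAZ. They also secrete VEGFA, a ligand that acts on the capillary endothelium wrapped around them. The 10 genes followed here are commonly used markers or products of these cells: Ager, Hopx, Pdpn, Aqp5, Cav1, Rtkn2, Akap5, Clic5, Emp2 and Vegfa. They were taken by symbol from the 53715 gene IDs of each count table. Each symbol matched 1 gene ID, and all 10 genes passed the filter on low counts in every comparison. Several of them are made by other cells as well: Pdpn by lymphatic endothelium and mesothelium, Cav1 by endothelium and mesenchyme, Aqp5 by airway glands, and Vegfa by many cell types.

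The series measured messenger RNA in mouse embryos in which Myocd, the gene of a smooth muscle coactivator of SRF, was deleted to ask what airway smooth muscle contributes to the lung and trachea. Mutants were labelled Tbx4rtTAi/+; tetOcrei/+; MyocdF/F, and their controls carried the same 2 transgenes with 1 floxed allele (MyocdF/+), except E13.5 control replicate 1, which was labelled MyocdF/F with no transgene. The groups were E18.5 right lung lobes (6 mutants, 4 controls), E13.5 right and left lung lobes (5 mutants, 5 controls) and E18.5 trachea (6 mutants, 4 controls), with an individual lung or trachea per library. Tbx4 sequences are active in the lung and tracheal mesenchyme, so the deletion was aimed at cells around the epithelium and not at alveolar type 1 cells themselves. Libraries held 19.9 to 32.8 M counted reads in E18.5 lung, 17.4 to 28.5 M in E13.5 lung and 11.7 to 30.5 M in the trachea. Levels are given as counts per M reads (CPM), and comparisons between genes as counts per kilobase of exon per M reads (RPKM).

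Myocd was counted across its whole length, with no label saying which exons were removed, so its level is no full check of the genotypes. It ran from 5.57 to 10.1 CPM in E18.5 mutant lungs, against 6.06 to 11.8 CPM in control lungs, from 6.64 to 13.1 CPM in E13.5 mutant lungs, against 10.1 to 18.9 CPM in control lungs, and from 2.74 to 8.66 CPM in mutant tracheas, against 0.895 to 8.07 CPM in control tracheas. The summed level of 5 smooth muscle genes was 242 ± 63.3 CPM in E13.5 mutant lungs and 570 ± 53.2 CPM in control lungs (SD, n = 5 each). The gap was smaller in E18.5 lung, with 248 ± 8.72 CPM in mutants (SD, n = 6) and 284 ± 18.2 CPM in controls (SD, n = 4). In the trachea the sum was 267 ± 72.7 CPM in mutants (SD, n = 6) and 843 ± 154 CPM in controls (SD, n = 4). Mutant and control ranges of this sum did not overlap at any stage or tissue. The labelled lungs held the alveolar type 2 gene Sftpc at 9190 ± 1036 CPM in E18.5 mutants (SD, n = 6) and 9339 ± 610 CPM in E18.5 controls (SD, n = 4), and the labelled tracheas held cartilage genes in every library.

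All 10 genes were at their highest in E18.5 lung, in mutants and in controls. Per length of exon, Ager, the receptor for advanced glycation end products, led the list there with 792 ± 68.4 RPKM in mutants (SD, n = 6) and 791 ± 30.7 RPKM in controls (SD, n = 4). Cav1, the scaffold of caveolae, followed with 416 and 427 RPKM in mutants and controls, and Vegfa with 221 and 234 RPKM. Rtkn2 was the lowest of the 10 with 36.5 RPKM in mutants and 43.5 RPKM in controls. The order was another one before differentiation: in E13.5 lung Cav1 led with 59.8 and 71.8 RPKM in mutants and controls, Vegfa followed with 39.7 and 42.7 RPKM, and Aqp5 came last with 0.169 and 0.172 RPKM. In the trachea Cav1 led again with 139 RPKM in mutants and 145 RPKM in controls, and Akap5 came last with 0.170 and 0.272 RPKM.

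**Figure D1:**
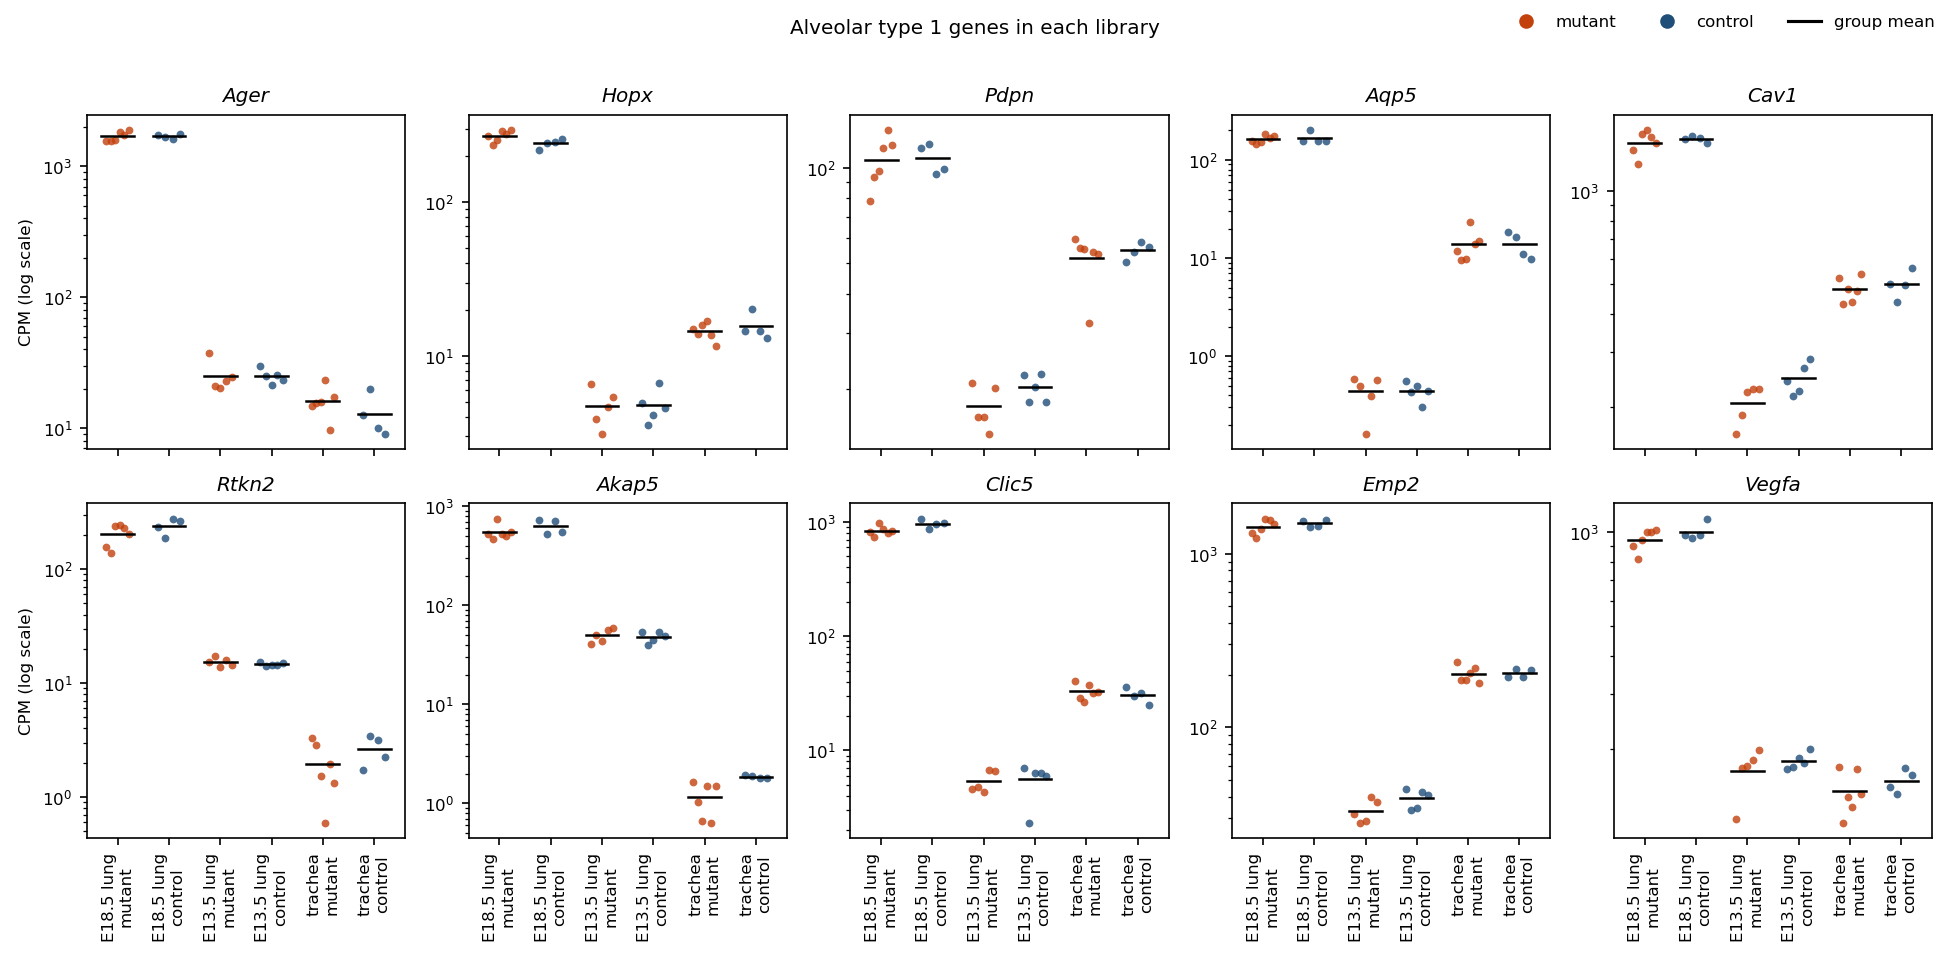
Levels of the 10 genes in each library (CPM, log scale), with a panel per gene and the 6 groups along the horizontal axis; points are libraries and lines are group means. Every E18.5 lung point lies above every point of E13.5 lung and of the trachea, while mutant and control points of the same tissue and stage mix for every gene but Akap5 in the trachea, where all 6 mutants lie below the 4 controls.

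Sequences just upstream of the transcription start are shown for 4 members that differ in how far they rose in the lung, Clic5, Ager, Hopx and Pdpn. RefSeq promoter entries on GRCm38.p6 covered 9 of the 10 genes with 12 starts. Each line gives the 250 bases before the start, 5′ to 3′ on the gene's strand, and none of these bases lies in an annotated exon. Clic5 lies on chr17:44188322-44188571 (+), Ager on chr17:34597600-34597849 (+), Pdpn on chr4:143299565-143299814 (-) and the upstream start of Hopx on chr5:77115124-77115373 (-). In the first 3 sequences capitals mark CpG dinucleotides, and in Hopx they mark the letters CTTGAG, the reverse complement of the NKX2-1 core CTCAAG.
Clic5: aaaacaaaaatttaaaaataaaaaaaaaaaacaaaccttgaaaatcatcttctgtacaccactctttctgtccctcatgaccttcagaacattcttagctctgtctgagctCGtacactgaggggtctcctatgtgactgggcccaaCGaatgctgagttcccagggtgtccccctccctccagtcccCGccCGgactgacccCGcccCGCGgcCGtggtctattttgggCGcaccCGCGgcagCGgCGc
Ager: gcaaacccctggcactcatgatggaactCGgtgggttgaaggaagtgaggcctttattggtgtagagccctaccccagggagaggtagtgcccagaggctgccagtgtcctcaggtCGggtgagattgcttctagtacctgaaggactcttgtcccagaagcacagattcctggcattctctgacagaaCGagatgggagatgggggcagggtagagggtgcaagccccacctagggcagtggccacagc
Pdpn: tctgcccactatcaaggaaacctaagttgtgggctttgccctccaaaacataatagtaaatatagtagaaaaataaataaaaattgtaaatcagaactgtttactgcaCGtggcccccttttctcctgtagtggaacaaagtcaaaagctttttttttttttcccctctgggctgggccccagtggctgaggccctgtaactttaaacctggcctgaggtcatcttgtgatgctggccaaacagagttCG
Hopx: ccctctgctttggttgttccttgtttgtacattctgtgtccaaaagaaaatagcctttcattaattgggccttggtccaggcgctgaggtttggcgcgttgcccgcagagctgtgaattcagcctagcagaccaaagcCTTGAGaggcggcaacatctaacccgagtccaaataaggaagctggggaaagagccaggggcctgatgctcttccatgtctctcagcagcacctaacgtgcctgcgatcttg

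The 4 windows differed in base content. The Clic5 window held 13 CpG dinucleotides, most of them near the start, and the Hopx window held 8, while Ager held 3 and Pdpn 2. G and C made up 52.8% of the Clic5 window, 57.6% of the Ager window, 52.4% of the Hopx window and 43.2% of the Pdpn window, against a median of 52.4% over 32851 mouse promoters of the same length. The NKX2-1 core CTCAAG, searched on both strands, was found in 1 of the 12 member windows, 112 bases before the upstream Hopx start, and in 13.3% of all promoters. The TEAD core CATTCC was in 0 of the 12 windows and in 12.6% of all promoters, and TATAAA was in 1 window (Cav1) and in 12.4% of all promoters. A match is a description of letters, and its absence says nothing about binding elsewhere.

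Mutant and control lungs at E18.5 were compared to see whether type 1 genes differed where Myocd was deleted, and 0 of the 10 passed an adjusted p of 0.05 (edgeR quasi-likelihood test, adjusted over 17467 genes), where 0.584% of all genes tested did. At an unadjusted p under 0.05 there were 2 of the 10, with edgeR and with DESeq2 alike, where edgeR put 1644 of the 17467 genes, and 0 passed adjustment with DESeq2. Ager stood at 1555, 1662 and 1897 CPM (lowest, median and highest of 6 mutants), against 1732, 1666, 1613 and 1758 CPM in the controls, a fold of 1.01 with a 95% interval of 0.915 to 1.11. The control values fell inside the mutant range. Emp2, a tetraspan membrane protein, stood at 1227, 1437 and 1590 CPM in mutants, against 1549, 1422, 1440 and 1560 CPM in controls, with a fold of 0.964 (95% interval 0.868 to 1.07).

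Clic5, a chloride intracellular channel family member bound to the actin cortex, and Hopx, a homeodomain protein that acts without binding DNA, were the 2 at an unadjusted p under 0.05. Clic5 was at 734.5, 829.2 and 971 CPM (lowest, median and highest) in 6 mutants, against 1068, 871, 951 and 977 CPM in 4 controls. Its log2 fold change was -0.19 (SE 0.0748, edgeR adjusted p = 0.407), with 5 of the 6 mutants lower than the control median. Hopx was at 235.9, 273 and 295.5 CPM in mutants, against 218, 242, 246 and 259.8 CPM in controls, with a log2 fold change of 0.18 (SE 0.0714, edgeR adjusted p = 0.445). Mutant and control values overlapped for both genes. Exons of Hopx share 27.2% of their bases with Hopxos on the other strand. These libraries do not mark strand, so reads from the shared bases cannot be told apart.

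Rtkn2 and Akap5 varied most among the lungs. Rtkn2 was at 139.6, 218 and 243 CPM (lowest, median and highest) in mutants, against 236, 187, 278 and 264.5 CPM in controls. Akap5, an anchoring protein that holds protein kinase A at the membrane, was at 465, 528 and 753 CPM in mutants, against 728, 524, 711 and 546 CPM in controls. Their log2 fold changes of -0.25 (SE 0.172) and -0.17 (SE 0.135) did not pass (edgeR adjusted p = 0.717 and 0.758). The other members, Pdpn, Aqp5, Cav1 and Vegfa, had folds from 0.949 to 0.994, and their mutant and control ranges overlapped. Over the 10, the median log2 fold change was -0.05, with 8 below 0, against 0.005 over all genes tested. For 9 of the 10 the 95% interval lay within 1.5-fold in either direction; the lower bound for Rtkn2 was a fold of 0.648. Summed over the 10 genes, the level was 7637 ± 612.5 CPM in mutants (SD, n = 6) and 8009 ± 244 CPM in controls (SD, n = 4).

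At E13.5, before alveolar differentiation, 0 of the 10 genes passed in mutant against control lungs, where 0.206% of 16486 genes did, and 1 was at an unadjusted p under 0.05 with edgeR and with DESeq2, where edgeR put 589 of the 16486 genes. That gene was Cav1, at 163, 188, 223, 228.1 and 227.9 CPM in mutants, against 242, 216, 225, 267 and 286 CPM in controls, with a log2 fold change of -0.25 (SE 0.102, edgeR adjusted p = 0.998). The 2 lowest libraries were mutants and the 3 highest were controls, with overlap between. Emp2 and Pdpn, a mucin-type membrane glycoprotein, had log2 fold changes of -0.22 (SE 0.108) and -0.18 (SE 0.111), and the other 7 were within 0.1 of 0 on the log2 scale. Aqp5, the apical water channel, rested on 4 to 15 reads per mutant library and 8 to 16 reads per control library, and its interval ran from 0.610 to 1.57-fold. The summed level was 528 ± 60.9 CPM in mutants and 588 ± 46.1 CPM in controls (SD, n = 5 each).

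In the E18.5 trachea 0 of the 10 genes passed either, where 0.0710% of 18315 genes did, and 0 were at an unadjusted p under 0.05 with edgeR or DESeq2, where edgeR put 1236 genes. Akap5 showed the widest gap in mutants against controls: mutants held 0.640, 1.27 and 1.63 CPM (lowest, median and highest of 6), and controls held 1.95, 1.87, 1.80 and 1.80 CPM. These ranges did not overlap, as was so in either direction for 2.34% of genes tested. At 13 to 50 reads per mutant library and 23 to 53 per control library, the log2 fold change of -0.64 had an SE of 0.520 and did not pass (edgeR adjusted p = 0.800). Rtkn2 (1.93 ± 1.004 CPM in mutants, SD, n = 6, and 2.63 ± 0.795 CPM in controls, SD, n = 4) and Ager (16.1 ± 4.37 and 12.9 ± 5.01 CPM) had log2 fold changes of -0.40 (SE 0.499) and 0.35 (SE 0.270). The other 7 lay between -0.08 and 0.13 on the log2 scale. Tracheas varied more than lungs in their surrounding tissue, and summed skeletal muscle genes ran from 11.8 to 2512 CPM in mutants and from 19.3 to 1947 CPM in controls; their part in these values was not tested.

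**Figure D2:**
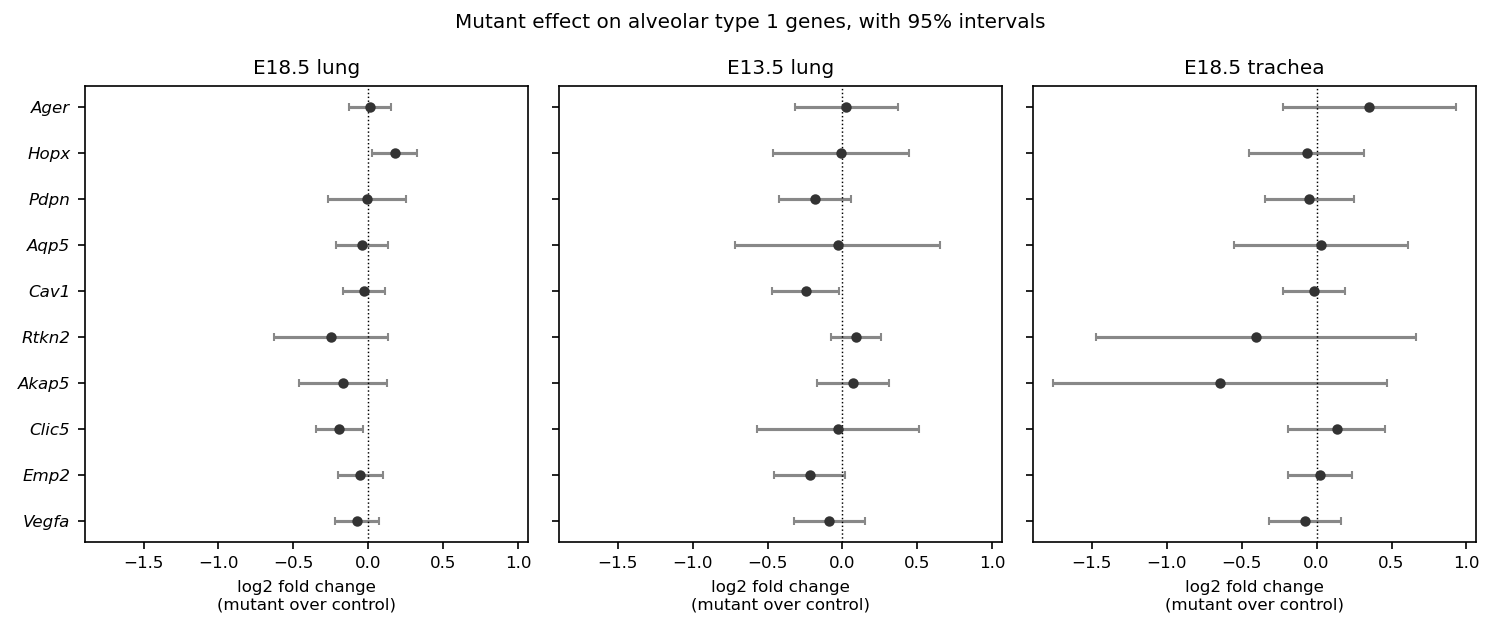
Log2 fold changes of mutants over controls for the 10 genes in E18.5 lung, E13.5 lung and E18.5 trachea (horizontal axis), as edgeR estimates with 95% intervals. In E18.5 lung Clic5 (-0.19) and Hopx (0.18) lie on either side of 0, and intervals are widest for Akap5 (-0.64) and Rtkn2 (-0.40) in the trachea.

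Whether the mutant effect differed by stage or tissue was tested with interaction terms. Between E18.5 and E13.5 lung the difference passed for 0 of the 10 genes, and 0 were at an unadjusted p under 0.05 with edgeR and with DESeq2, where 0.0268% of 18639 genes passed and edgeR put 1090 at an unadjusted p under 0.05. Between E18.5 lung and trachea it passed for 0 of the 10, where 0.0252% of 19859 genes did. There 1 of the 10, Clic5, was at an unadjusted p under 0.05, as were 1374 of the 19859 genes, with a difference of -0.37 in log2 fold change (SE 0.162, edgeR adjusted p = 0.682). These tests leave room for moderate differences: 5 of the 10 intervals in each test lay within 1.5-fold.

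From E13.5 to E18.5 every member rose in the lung. In mutants and in controls alike, 10 of the 10 genes passed as higher at E18.5, where 37.2% of all 18639 genes tested did so in mutants and 37.4% in controls. No range overlapped, as was so in this direction for 28.0% of genes tested in mutants and 33.8% in controls. The median log2 fold change of the 10 was 4.58 in mutants and 4.67 in controls, against -0.02 and -0.01 over all genes tested. The stages also differ in the lobes taken, right at E18.5 and right and left at E13.5, and their sample index numbers restart, so lobes and any difference in sequencing cannot be told apart from age. In bulk tissue, more type 1 cells and more RNA per cell cannot be told apart either.

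The size of the rise differed widely between members. Aqp5 rose most: it stood at 163 ± 14.6 CPM in E18.5 mutant lungs (SD, n = 6), against 0.579, 0.494, 0.161, 0.392 and 0.571 CPM in the 5 E13.5 mutants. In controls it stood at 157, 202, 157 and 158 CPM at E18.5, against 0.561, 0.431, 0.498, 0.3045 and 0.439 CPM at E13.5. The fold was 376 in mutants (95% interval 304.5 to 476) and 378 in controls (306 to 478), and 0.381% of genes tested had a larger rise in controls. Clic5 came next among the 10, with 840.1 ± 78.7 CPM in E18.5 mutants (SD, n = 6) against 5.403 ± 1.16 CPM in E13.5 mutants (SD, n = 5). In controls Clic5 stood at 967 ± 81.1 CPM at E18.5 (SD, n = 4) and 5.61 ± 1.87 CPM at E13.5 (SD, n = 5), a fold of 175 (129 to 237).

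Ager, Hopx and Emp2 rose 38.8-fold or more in controls. Ager already had 37.5, 20.9, 20.4, 23.1 and 24.5 CPM in E13.5 mutants and 29.7, 24.9, 21.4, 25.7 and 23.5 CPM in E13.5 controls, and its rise was 67.6-fold in mutants and 68.6-fold in controls. Hopx had 4.70 ± 1.33 CPM in E13.5 mutants and 4.77 ± 1.17 CPM in E13.5 controls (SD, n = 5 each), and rose 58.6-fold in mutants and 51.3-fold in controls. Emp2 had 33.1 ± 5.03 CPM in E13.5 mutants and 39.0 ± 4.91 CPM in E13.5 controls (SD, n = 5 each), and rose 43.4-fold in mutants and 38.8-fold in controls. For all 3 genes every E13.5 library lay below every E18.5 lung library.

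Rtkn2 and Akap5 rose less, and Cav1, Pdpn and Vegfa least. Rtkn2 was steady at E13.5, at 13.8 to 17.4 CPM in mutants and 14.1 to 15.2 CPM in controls, and rose 13.3-fold in mutants and 16.8-fold in controls. Akap5 rose 11.1-fold in mutants and 13.2-fold in controls, above E13.5 levels of 50.1 ± 7.97 CPM in mutants and 48.2 ± 5.96 CPM in controls (SD, n = 5 each). Cav1 rose 6.998-fold in mutants and 6.03-fold in controls, Pdpn 6.04-fold and 5.37-fold, and Vegfa 5.60-fold and 5.56-fold. The smallest of these rises in controls, that of Pdpn, was exceeded by 10.2% of all genes tested.

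Genes of other cell types were followed over the same interval. Of all genes tested, 37.2% passed as higher and 38.4% as lower in mutants, and 37.4% and 37.3% in controls. All 10 alveolar type 2 genes passed as higher at E18.5 in mutants and in controls, with a median log2 fold change of 7.68 in controls, and their sum was 18050 ± 1870 CPM in E18.5 mutants (SD, n = 6) and 19220 ± 1240 CPM in E18.5 controls (SD, n = 4), against 107 ± 18.8 CPM in E13.5 mutants and 109 ± 29.3 CPM in E13.5 controls (SD, n = 5 each). Sftpd was at 0 in all 5 E13.5 controls. All 8 endothelial genes passed as higher (median 1.89 in controls), as did 4 of 6 pan-epithelial genes (median 1.38), while Epcam fell (log2 fold change -1.17). Of 6 mesothelial genes 2 passed as higher in controls and 2 as lower, near the shares over all genes. Among them Msln stood at 793 CPM in E18.5 controls against 0.728 CPM in E13.5 controls. Of 6 lymphatic genes 4 passed as higher and 1 as lower in controls. How much of the rise of Cav1, Pdpn or Vegfa came from these cells was not tested.

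In the E18.5 lung against the E18.5 trachea, which lacks alveoli, all 10 genes were higher in lung in mutants and in controls, where 26.5% of the 19859 genes tested were higher in mutants and 24.6% in controls. This comparison and the one by stage share the E18.5 lung libraries. No lung range overlapped a trachea range; 21.0% of genes tested in mutants and 26.0% in controls were higher in lung without overlap. The median log2 fold change was 3.83 in mutants and 3.79 in controls, against -0.10 and -0.01 over all genes tested. Akap5 had the widest gap, with 554 ± 101 CPM in lung against 1.16 ± 0.442 CPM in trachea of mutants (SD, n = 6 each), and 627 ± 107 CPM in lung against 1.86 ± 0.0717 CPM in trachea of controls (SD, n = 4 each). Its fold was 456 in mutants (95% interval 342 to 613) and 338 in controls (240 to 478), and 0.156% of genes tested had a larger one in controls.

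Ager and Rtkn2 were also low in the trachea relative to the lung. Ager was at 9.64, 15.8 and 23.2 CPM (lowest, median and highest) in 6 mutant tracheas, and at 12.6, 20.1, 9.96 and 9.04 CPM in the control tracheas. Those trachea levels were 0.948% of the lung mean in mutants and 0.764% in controls. Rtkn2 was at 0.595, 1.74 and 3.29 CPM in mutant tracheas and at 1.71, 3.42, 3.16 and 2.24 CPM in control tracheas, which is 0.954% and 1.09% of the lung mean. For comparison, the 10 type 2 genes stood in the trachea at 0.0253% (Lamp3) to 56.5% (Sftpd) of their lung means in mutants, and at 0.0274% (Lamp3) to 50.02% (Sftpd) in controls.

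Pdpn and Cav1 stood at the other end. Pdpn had 105.7 ± 19.2 CPM in lung and 51.7 ± 9.78 CPM in trachea of mutants (SD, n = 6 each), and 107 ± 11.7 CPM in lung and 54.9 ± 3.35 CPM in trachea of controls (SD, n = 4 each), so the trachea held 49.0% of the lung mean in mutants and 51.3% in controls. For Cav1 the trachea held 33.5% and 34.0%. Vegfa, Emp2, Aqp5, Hopx and Clic5 lay between, with trachea levels from 3.91% to 15.5% of the lung mean in mutants and from 3.17% to 15.8% in controls. The 5 cartilage genes, low in lung, summed to 2796 to 11570 CPM in mutant tracheas and 9005 to 14140 CPM in control tracheas, and 6 airway secretory and gland genes tested were all lower in lung, in mutants and in controls. The endothelial genes were higher in lung in 8 of 8 cases (median 2.71 in mutants and 2.82 in controls) and the pan-epithelial genes higher in 0 and lower in 5 of 6. Of all genes tested 26.5% were higher and 31.7% lower in mutant lung, and 24.6% and 24.5% in control lung.

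The place of the trachea relative to the immature lung split the members. Hopx, Pdpn, Aqp5, Cav1, Clic5 and Emp2 were higher in every E18.5 trachea than in every E13.5 lung. Aqp5 for instance averaged 13.9 CPM in mutant tracheas and 13.9 CPM in control tracheas, against 0.439 and 0.447 CPM in mutant and control E13.5 lungs. Rtkn2 and Akap5 were the reverse, with every trachea below every E13.5 lung: Akap5 reached at most 1.95 CPM in a trachea, against at least 40.1 CPM in an E13.5 lung. Vegfa lay close to the E13.5 lung, and its trachea and E13.5 lung ranges overlapped. For Ager the overlap rested on mutant trachea replicate 4, at 23.2 CPM. Every other trachea lay below every E13.5 lung in Ager, with at most 20.1 CPM against at least 20.4 CPM. No test was made of this order, which is a description. The share of all genes that separate in this way was not taken, and tissue and stage differ together here.

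**Figure D3:**
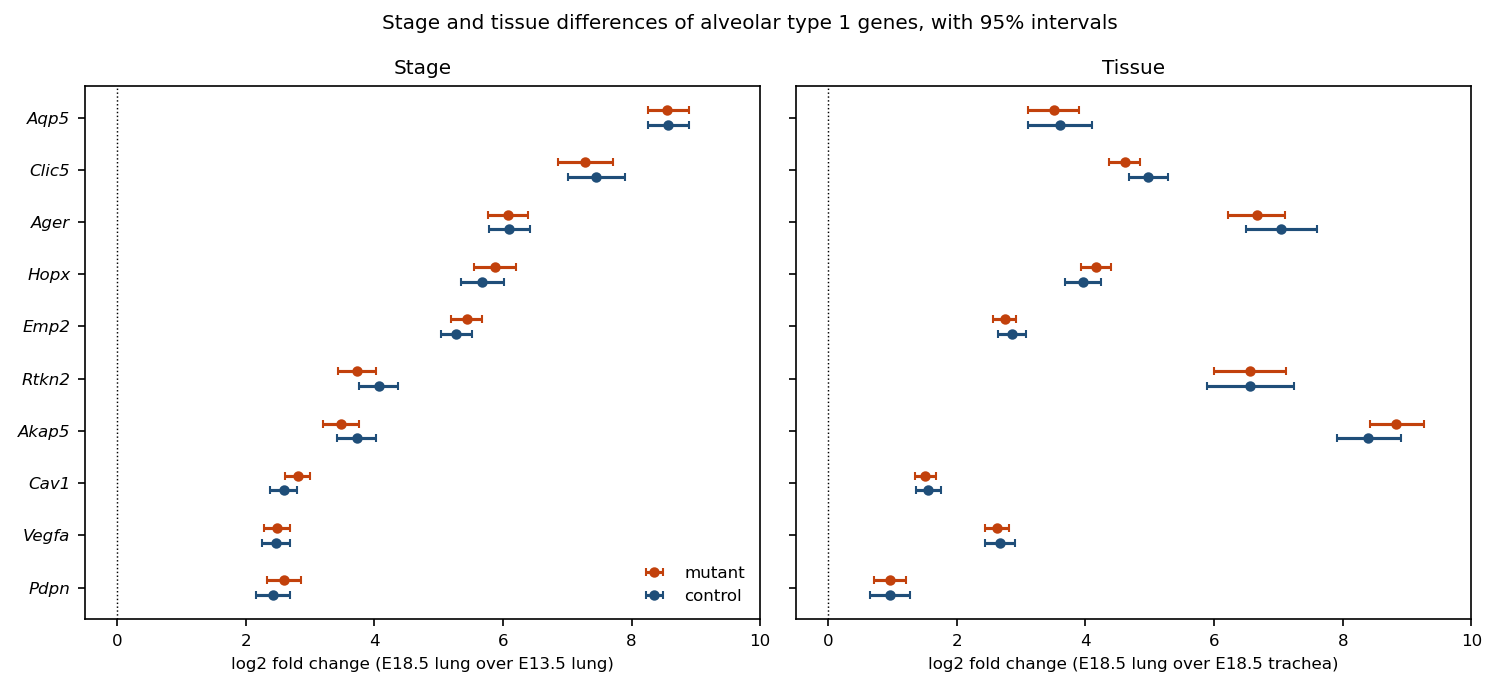
Log2 fold changes with 95% intervals of E18.5 over E13.5 lung (left) and of E18.5 lung over E18.5 trachea (right), for mutants and controls and for each of the 10 genes, sorted by the stage rise in controls. Mutant and control estimates lie close together for each gene, and Rtkn2, Akap5 and Ager show the widest gaps between lung and trachea while Aqp5 and Clic5 show the widest gaps by stage.

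A wider list of 18 other genes attributed to type 1 cells moved the same way by stage. In mutants 16 passed as higher at E18.5 and 2 as lower, and in controls 16 passed as higher and 1 as lower, with medians of 3.73 and 3.77. Of all genes tested, 38.4% in mutants and 37.3% in controls passed as lower at E18.5. The largest changes in controls were Gramd2 (312 ± 14.3 CPM at E18.5, SD, n = 4, against 2.58 ± 0.477 CPM at E13.5, SD, n = 5), the sodium channel subunit Scnn1a (357 ± 35.6 against 3.19 ± 0.339 CPM), the basement membrane collagen chain Col4a3 (280.1 ± 44.0 against 5.20 ± 0.586 CPM) and Lmo7 (780 ± 49.9 against 15.7 ± 2.93 CPM). Igfbp2, a growth factor binding protein reported in late type 1 cells, went the other way and fell to 11.4 CPM in E18.5 controls, against 124 CPM in E13.5 controls. In lung against trachea 15 of the 18 were higher and 2, Igfbp2 and S100a6, lower, in mutants and in controls, where 31.7% and 24.5% of all genes tested were lower. Cldn18, a tight junction claudin of alveolar cells, differed most, with 643 ± 44.7 CPM in lung and 0.135 ± 0.112 CPM in trachea of mutants (SD, n = 6 each) and 583 ± 44.1 CPM in lung and 0.0989 ± 0.0176 CPM in trachea of controls (SD, n = 4 each).

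Between mutants and controls 0 of these 18 genes passed in E18.5 or E13.5 lung, and 0 of the 17 tested passed in the trachea. The 2 most abundant in E18.5 lung were Timp3 (log2 fold change -0.05, SE 0.0713) and Lmo7 (-0.15, SE 0.0657). In E13.5 lung they were Igfbp2 (-0.01, SE 0.143) and Sema3a (0.06, SE 0.0901), and in the trachea S100a6 (0.60, SE 0.249) and Krt7 (0.26, SE 0.1005). Closest to the threshold was Igfbp2 in the trachea, named here after its values were seen: it had 100 ± 11.1 CPM in mutants (SD, n = 6) and 152 ± 8.51 CPM in controls (SD, n = 4), a log2 fold change of -0.57 (SE 0.1004, edgeR adjusted p = 0.0573). Its ranges did not overlap, as was so in either direction for 2.34% of genes tested.

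Of 15 regulators of distal lung progenitors and of type 1 fate, 6 passed as higher and 8 as lower at E18.5, in mutants and in controls. Of all genes tested 37.2% passed as higher and 38.4% as lower in mutants, and 37.4% and 37.3% in controls. The chromatin protein Hmga2 fell to 14.5 ± 1.85 CPM in E18.5 controls (SD, n = 4), against 245 ± 58.2 CPM in E13.5 controls (SD, n = 5), and Mycn fell to 8.43 ± 1.77 CPM, against 59.4 ± 5.91 CPM. Cebpa, a factor of differentiating alveolar epithelium, rose to 142 ± 16.2 CPM, against 9.81 ± 1.56 CPM, and Tead4 rose to 48.4 ± 2.90 CPM, against 11.9 ± 1.21 CPM. Gata6 was the gene that did not pass. Relative to the trachea, 12 were higher and 2 lower in mutant lung, and 11 higher and 3 lower in control lung. Of all genes tested 26.5% were higher and 31.7% lower in mutant lung, and 24.6% and 24.5% in control lung. Tead4 was at 48.4 ± 2.90 CPM in control lung against 5.21 ± 0.621 CPM in control trachea (SD, n = 4 each), and Sox9, which also marks cartilage, at 18.7 ± 3.94 against 99.1 ± 10.9 CPM. None of the 15 passed between mutants and controls in any tissue; at E18.5 Nkx2-1 stood at 334 ± 15.2 CPM in mutant lungs (SD, n = 6) and 304 ± 58.8 CPM in control lungs (SD, n = 4), and Wwtr1, the gene of TAZ, at 259 ± 16.8 and 257 ± 9.43 CPM. The 2 most abundant in E13.5 lung were Yap1 (log2 fold change -0.01, SE 0.0684) and Etv5 (-0.05, SE 0.114), and in the trachea Klf5 (0.08, SE 0.104) and Yap1 (-0.14, SE 0.133).

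Vegfa is the secreted member of the 10, so 16 genes of its pathway and target endothelium were followed. Vegfa itself was at 816, 971 and 1014 CPM (lowest, median and highest) in E18.5 mutant lungs and at 975, 954, 977 and 1105 CPM in control lungs, with overlapping ranges. At E13.5 it was at 119, 173, 176, 184 and 198 CPM in mutants and at 172, 175.5, 187, 181 and 199.9 CPM in controls. Among the 16 genes 9 were higher and 4 lower at E18.5 than at E13.5, in mutants and in controls, with medians of 1.17 and 1.09. Of all genes tested 37.2% were higher and 38.4% lower in mutants, and 37.4% and 37.3% in controls. In controls Car4, which marks a capillary endothelial type known to depend on epithelial VEGFA in mouse lung, stood at 37.7 ± 4.03 CPM at E18.5 (SD, n = 4) against 0.134 ± 0.0858 CPM at E13.5 (SD, n = 5). The hypoxia-regulated factor Epas1 rose by 3.14 on the log2 scale (SE 0.112), the coreceptor Nrp1 by 2.84 (SE 0.153) and the Notch ligand Dll4 by 2.18 (SE 0.107). The other ligands Vegfb and Pgf fell by 0.95 (SE 0.151) and 1.54 (SE 0.177), as did Hif1a by 0.69 (SE 0.0672) and the endothelial gene Esm1 by 0.84 (SE 0.312), while Vegfc, Apln and Aplnr did not pass.

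In lung against trachea 12 of these 16 genes were higher and 1 lower in mutants, and 12 higher and 0 lower in controls. Of all genes tested 26.5% were higher and 31.7% lower in mutants, and 24.6% and 24.5% in controls. The receptor Kdr was at 511 ± 50.6 CPM in lung and 71.5 ± 5.58 CPM in trachea of mutants (SD, n = 6 each), and at 561 ± 60.1 CPM in lung and 81.8 ± 4.804 CPM in trachea of controls (SD, n = 4 each). Between mutants and controls 0 of the 16 passed in E18.5 lung, and 0 of the 15 tested passed in E13.5 lung or trachea. Car4 in E18.5 lung is named after its values were seen: it ran from 12.9 to 30.01 CPM in mutants and from 34.3 to 43.5 CPM in controls, with no overlap, as in 2.39% of genes tested in either direction, and its log2 fold change of -0.63 (SE 0.213) did not pass (edgeR adjusted p = 0.344). Epas1 and Kdr, the 2 most abundant there, had log2 fold changes of -0.17 (SE 0.0729) and -0.13 (SE 0.0829). In E13.5 lung the 2 most abundant were Aplnr (-0.14, SE 0.109) and Hif1a (0.02, SE 0.0686), and in the trachea Epas1 (-0.14, SE 0.128) and Nrp2 (-0.47, SE 0.133).

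**Figure D4:**
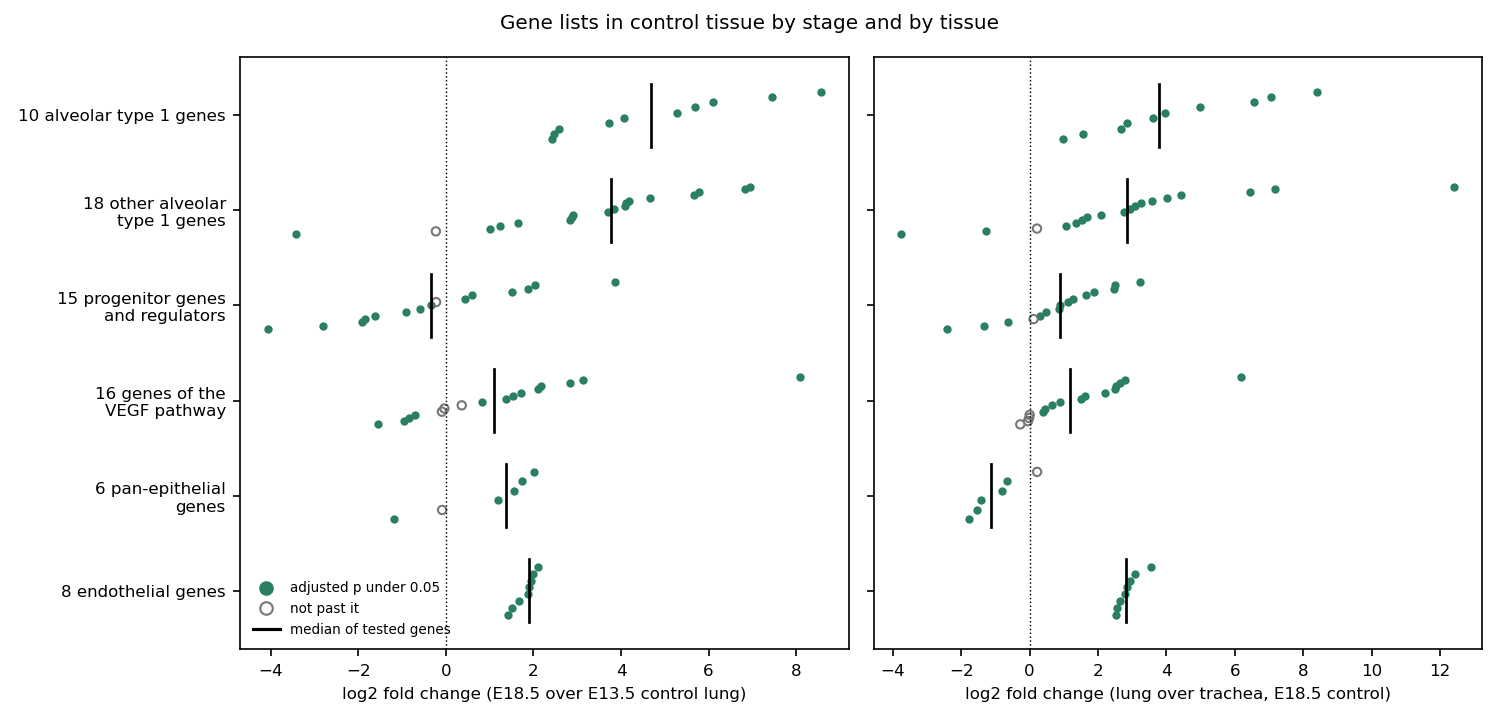
Log2 fold changes of each tested gene of 6 lists in control tissue, by stage (left) and by tissue (right); filled points passed an adjusted p of 0.05, open points did not, and vertical lines are list medians. The 10 type 1 genes all lie above 0 in both panels, the progenitor genes and regulators lie on both sides of 0 by stage, and the pan-epithelial genes lie mostly below 0 by tissue.

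Within E18.5 lung the members were set against each other over the 10 libraries, as deviations from the genotype mean on the log2(CPM + 0.5) scale; the values of a library share its depth and its dissection. Of 45 pairs, 40 had a Pearson's r above 0, with a median of 0.52. No such count was taken over other genes, so whether it is particular to these members was not tested. The highest was Emp2 with Vegfa (r = 0.88, permutation p = 0.00119, adjusted over 55 relations 0.0441; Spearman's rho = 0.84, permutation p = 0.00382, adjusted 0.117). Akap5 with Clic5 (r = 0.84, rho = 0.75), Hopx with Vegfa (r = 0.83, rho = 0.79) and Ager with Emp2 (r = 0.83, rho = 0.83) had the same adjusted permutation p of 0.0441 for r, and adjusted p from 0.117 to 0.121 for rho. The permutations shuffled the deviations freely across both genotypes and made no allowance for the means removed. Their p-values run low for that reason, and 0.0441 lies close to the threshold. Without the 2 libraries farthest from the median of the first-named gene, r was 0.78 for Emp2 with Vegfa, 0.55 for Akap5 with Clic5, 0.73 for Hopx with Vegfa and 0.91 for Ager with Emp2. Besides Clic5, Akap5 had r from -0.38 with Aqp5 to 0.52 with Rtkn2 among the other 8 members, and none of these passed. The sum of 10 type 2 genes had an r below 0 with each of the 10 members, and none of these passed either. Without the 2 libraries farthest from the member's median, r was above 0 for 5 of the 10, from 0.04 for Clic5 to 0.40 for Hopx.

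**Figure D5:**
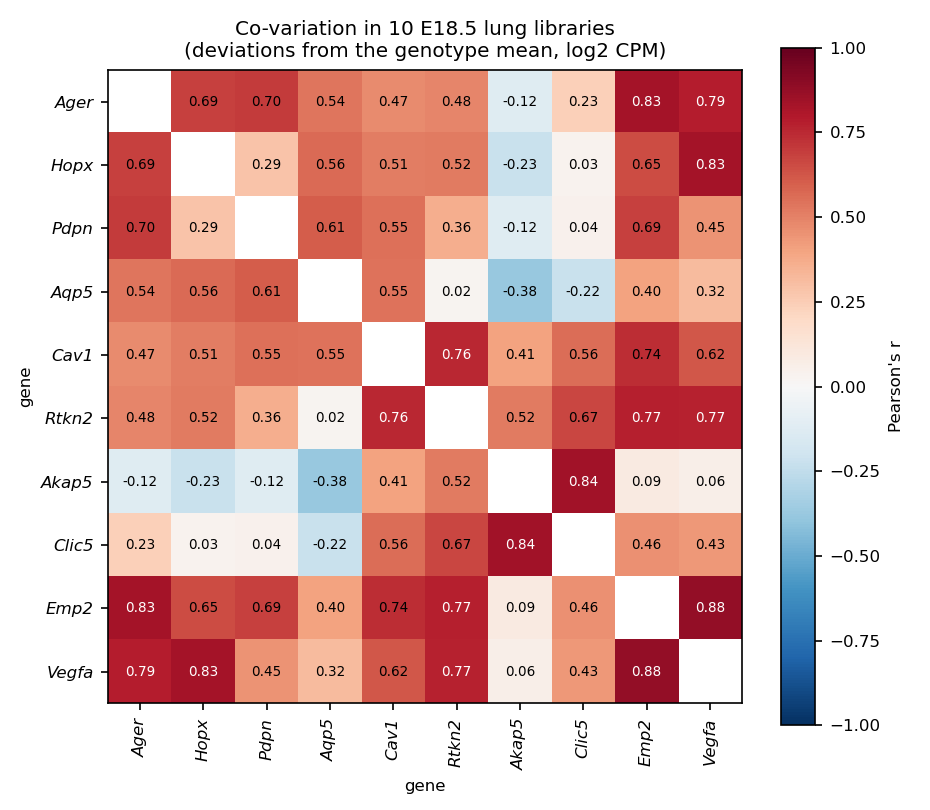
Pearson's r between the 10 genes over 10 E18.5 lung libraries, after removing the genotype mean (log2 CPM with a pseudocount of 0.5). Most cells are positive, up to 0.88 for Emp2 with Vegfa, and the Akap5 column holds the lowest value, -0.38 with Aqp5.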

How the data were processed

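Per the submitters' processing notes, alignment by the authors used STAR and the GRCm38 build; per the file headers, reads were then counted per gene with featureCounts 1.6.2 on GENCODE vM17. The deposited values are raw counts of reads per gene in 3 tables. The kit does not mark strand. DESeq2 was the authors' test, per the series design.

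From these counts, edgeR 4.0.16 (R 4.3.3; TMM, filterByExpr, robust quasi-likelihood F test, two-sided, Benjamini-Hochberg over all genes tested, threshold 0.05) gave every fold change, with no covariate. Genotype was tested within each table. Stage and tissue contrasts and interactions came from 4-group fits of 20 libraries, which pool the spread. Levels are CPM on TMM sizes over 30 libraries; RPKM used the gene lengths in the files. DESeq2 1.42.0, another normalization (RLE), no filter on low counts, each replicate left out, the replicate block and fits of the 2 groups alone were alternatives. The steps were tested on simulated data.

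Members and gene lists were chosen with earlier results of these data known. Named list genes were the 4 with the largest change past the threshold at 5 CPM or more, or the 2 most abundant where fewer than 2 passed. Other genes of the lists that lie against their list's direction, or that did not pass, and the marker genes Epcam and Msln were named after their values were seen. Nothing in the labels says that replicates came from separate litters, so p-values measure the spread between these libraries. Counts of 2 libraries in a group differed by a chi-square of at least 4.11 per degree of freedom, so none was a copy. Same-numbered E18.5 lungs and tracheas deviated together. Their r ran from 0.12 to 0.29 in 6 of 6 mutant pairs and from 0.16 to 0.29 in 4 of 4 control pairs. Their numbers were taken to pair them in the replicate block alone, and the pairing comes from this check, not from the labels. Same-numbered E18.5 and E13.5 lungs, which cannot be pairs, had r from 0.05 to 0.24 in controls (3 of 4 over 0.1). In mutants they had r from -0.15 to 0.14 (1 of 5 over 0.1), so r of this size is no proof of pairs.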

Additional observations from a re-analysis of the deposited data

Results flagged for a closer look

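Of 60 groups of a member's values, 6 held a library far from the others, where chance gives about 3. Ager was at 37.5 CPM in E13.5 mutant replicate 1, with the nearest of the other mutants at 24.5 CPM. Clic5 was at 2.34 CPM in E13.5 control replicate 2, with the nearest other control at 6.02 CPM. In E18.5 lung, Akap5 was at 752.7 CPM in mutant replicate 3 (nearest 546.6 CPM), Aqp5 was at 202.3 CPM in control replicate 2 (nearest 157.9 CPM) and Vegfa was at 1105 CPM in control replicate 4 (nearest 976.6 CPM). Pdpn was at 32.2 CPM in mutant trachea replicate 4, with the nearest other mutant trachea at 53.3 CPM. With each of these libraries left out in turn, 0 of the 10 genes passed between mutants and controls.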

How the results depend on the processing

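The members' calls held under the alternatives run: 10 of 10 stayed past the threshold by stage and by tissue, and 0 of 10 passed in the 3 genotype comparisons and the 2 interactions. The lowest adjusted p of any member there was 0.0750, for Rtkn2 in E18.5 lung. Counts over all genes moved more. With DESeq2, genes called between mutants and controls were 79 in E13.5 lung (edgeR 34), 262 in lung at E18.5 (edgeR 102) and 99 in the trachea (edgeR 13), and the interactions gave 42 by stage and 67 by tissue (edgeR 5 each). Without a filter on low counts they were 192 in lung at E18.5 and 22 in the trachea. The cause was not tested.

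With the replicate block the counts were 0 in E13.5 lung and 28 in the trachea, and no member's call changed by block or pairing. No label says that same-numbered mutants and controls are pairs. The r of their deviations ran from -0.29 to -0.02 in E13.5 lung (0 of 5 pairs over 0.1). It ran from 0.0015 to 0.41 in E18.5 lung (3 of 4) and from -0.32 to 0.45 in the trachea (2 of 4). In E18.5 lung 3 of the 4 such mutants followed the control of their own number most closely. Whether these libraries share a litter or a batch was not tested. Leaving out each replicate gave 17 to 56 genes in E13.5 lung, 26 to 205 in E18.5 lung, 3 to 16 in the trachea, 3 to 19 and 2 to 9 for the stage and tissue interactions. The lowest count in E18.5 lung came without control replicate 1 and the highest without control replicate 2; in E13.5 lung the highest came without mutant replicate 1.

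Depth limits Aqp5 at E13.5 and Akap5 and Rtkn2 in the trachea, whose libraries hold few reads of them.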

Other observations

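Genes were ranked by how closely their level on the log2(CPM + 0.5) scale followed Ager over all 30 libraries. The ranking covered 11996 genes at 5 CPM or more in E18.5 control lung and left out the members and every gene of the lists. Its top 5 were Bcam, Gm33489, Lpcat1, Tmem243 and Gif, with Pearson's r from 0.9951 (Bcam) to 0.9903 (Gif). The libraries fall into lung and trachea and into 2 stages, so these values mostly restate the differences between tissues and stages and are a description with no test. Bcam, a laminin-binding adhesion protein, averaged 788 and 767 CPM in E18.5 mutant and control lungs, 179 and 191 CPM in E13.5 mutant and control lungs, and 163 and 151 CPM in mutant and control tracheas. Lpcat1, an enzyme of surfactant lipid synthesis best known from type 2 cells, averaged 746 and 764 CPM, 111 and 114 CPM, and 72.7 and 74.2 CPM in the same groups. Gm33489 was listed at 0 in every trachea library. Of the other 9 members, Vegfa followed Ager most closely (r = 0.98), then Rtkn2 (0.94) and Hopx (0.93), and Pdpn least (0.72).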
